A study of Mus musculus with 9 samples.

Results

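Surfactant proteins A, C and D and the protease napsin A were followed on 9 expression arrays of mouse lung tissue. The members were all probes whose platform annotation gives Sftpa1, Sftpb, Sftpc, Sftpd or Napsa as the gene symbol, and 5 of the 10012 probes met that rule, for 4 of the 8841 genes named by a single-symbol probe. Sftpa1, Sftpc and Sftpd had 1 probe each and Napsa had 2, called here probe 1501 and probe 3802 by their row in the table. No probe carried the symbol Sftpb, so surfactant protein B was not analysed here.

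Pulmonary surfactant is a film of phospholipid and protein that lowers surface tension in the alveolus. It is made, stored in lamellar bodies and secreted by alveolar type II cells. Surfactant proteins B and C are small, very hydrophobic proteins that work within the lipid film, and both are cut from longer precursors. Napsin A, an aspartic protease of type II cells, takes part in that cutting of the surfactant protein B precursor. Surfactant proteins A and D are large collectins, proteins with a collagen-like stem and a sugar-binding head, which bind microbes in the airspace.

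The control group has 3 samples, and the labels do not say how these animals were handled. The LPS group has 3 samples of lung after an injection of E. coli lipopolysaccharide (the labels give serotype O127:BO) at 3 mg/kg, with no time given. The overventilation group has 3 samples of lung after mechanical ventilation at a pressure of 25 cmH2O for 3 h. The labels name no strain, age or sex. They also do not state that each sample is another animal, and every p below therefore reads against a spread between samples that may be technical.

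Values in the deposited table are ratios to the geometric mean of the 3 controls, so the control mean of each probe is 0 on the log2 scale used below. Such ratios give no level of one gene against another. Low values on each array end at a floor. For probes at the floor on all 9 arrays its ratio was 0.709 to 1.32 on the controls and 0.957 to 0.989 on the LPS arrays. On overventilation arrays 1 to 3 it was 0.981, 0.801 and 2.22. The floor of any other probe lies at another ratio, so lower ratios are possible. None of the 5 probes of the surfactant proteins and napsin A was at the floor on 2 or more arrays. A floor on a single array could not be detected, so their own floor is unknown. All 5 were among the 5710 probes tested. Overventilation array 3 held 110 lone high values, meaning probes over 1.5 (log2) above every other array, against at most 6 on any other array, and LPS array 2 held 291 lone low values. In whole lung tissue, fewer type II cells and less RNA per cell cannot be told apart.

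None of the 5 probes passed the test in any comparison. With limma's moderated test, adjusted by the Benjamini-Hochberg method over all 5710 probes, 0 of 5 probes were called for overventilation against control, for LPS against control, and for overventilation against LPS. Over all tested probes the count was also 0 (0%) in each. At an unadjusted p under 0.05 limma gave 850 probes (14.9%) for overventilation against control, 118 (2.07%) for LPS against control and 543 (9.51%) for overventilation against LPS. Of the 5 probes, 2, 0 and 1 were among these. Groups without overlap were found at 1, 0 and 1 of the 5 probes, each time Napsa probe 1501 on the lower side. Over all tested probes the shares were 19.7%, 6.32% and 11.2% in either direction, and 10.5%, 4.08% and 5.46% on the lower side. Without overventilation replicate 2 the fit called 290 probes for overventilation against control, none of them one of these 5.

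**Figure D1:**
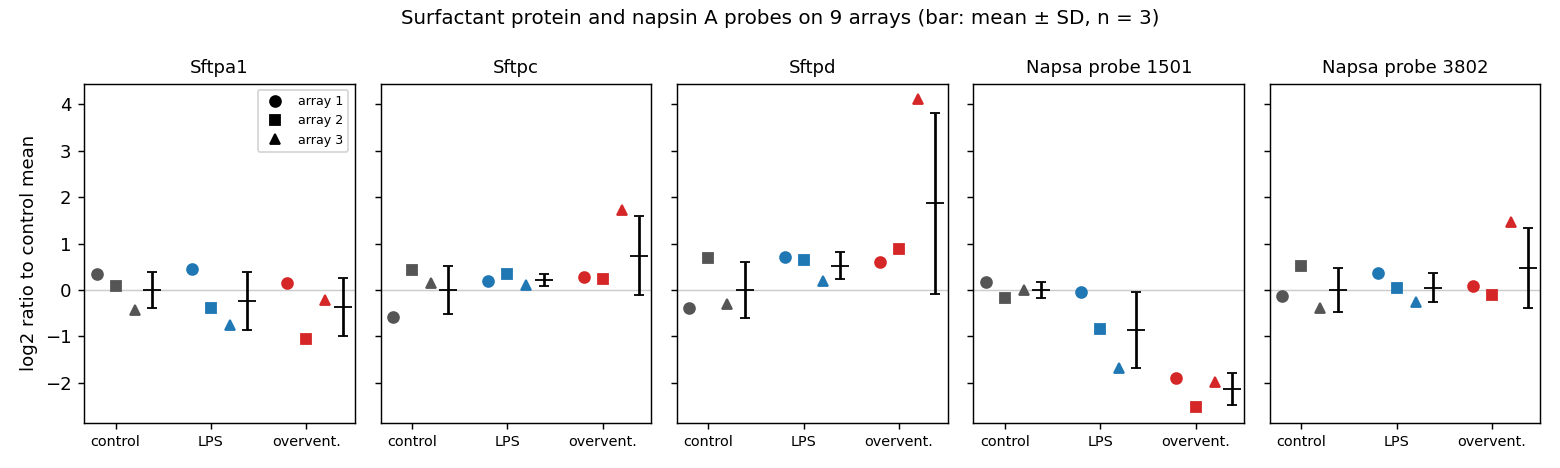
Log2 ratio to the control mean (vertical axis) of each surfactant protein and napsin A probe on the 9 arrays, by group. Circles, squares and triangles are arrays 1, 2 and 3, and bars give the mean ± SD over 3 arrays. Napsa probe 1501 lies between -2.53 and -1.89 on the overventilation arrays, below all other arrays, and Sftpd reaches 4.12 on overventilation array 3.

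Among the 5 probes, probe 1501 of napsin A had the smallest p. In array order, this probe stood at 0.18, -0.17 and -0.01 in the controls, at -0.04, -0.84 and -1.69 after LPS, and at -1.89, -2.53 and -1.98 after overventilation. All 3 overventilated samples lay below all controls and below all LPS samples, and the LPS samples spanned the gap between the other groups, with array 1 among the controls and array 3 next to the overventilated lungs.

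The mean of probe 1501 was -2.13 ± 0.35 (SD, n = 3) after overventilation against 0 ± 0.18 in controls, a 4.39-fold lower ratio (95% interval of the log2 change -3.08 to -1.19). By limma it ranked 11 of 5710 probes in that comparison and did not pass after adjustment (limma adjusted p = 0.193). Leaving out each array in turn kept the change between -2.25 and -1.93, with adjusted p between 0.0551, without overventilation replicate 2, and 0.545, without overventilation replicate 3.

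Against LPS the change of probe 1501 after overventilation was -1.27 (95% interval -2.22 to -0.33, limma adjusted p = 0.494), with no overlap of the 3 samples of each group. For LPS against control it was -0.86 (95% interval -1.80 to 0.09, adjusted p = 1). It was -1.27, -0.86 and -0.44 without LPS replicate 1, 2 and 3. Each LPS array minus the control array of the same number gave -0.22, -0.67 and -1.68. No label pairs these arrays, so the signs depend on the numbering, and the LPS and control samples overlapped. With the replicate number as a block the limma adjusted p was 0.826.

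The other napsin A probe did not follow. Probe 3802 stood at -0.13, 0.52 and -0.39 in controls, at 0.36, 0.05 and -0.27 after LPS and at 0.08, -0.12 and 1.46 after overventilation. The groups overlapped, with overventilation array 3 above the rest. The change was 0.48 for overventilation against control (95% interval -0.55 to 1.5, adjusted p = 0.694) and 0.05 for LPS against control (95% interval -0.98 to 1.07, adjusted p = 1), the latter turning to -0.003 with array weights. Without overventilation replicate 3 the first of these was -0.02.

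Both napsin A probes are on the same array, so a single scaling factor per array cancels in the gap between them. In array order, probe 3802 minus probe 1501 was -0.31, 0.70 and -0.39 in controls, 0.40, 0.89 and 1.42 after LPS, and 1.97, 2.41 and 3.44 after overventilation. The gap was thus larger on every overventilated sample than on any other. Its mean was 2.61 higher after overventilation than in controls (SD 0.75 and 0.61), with an exact two-sided permutation p of 0.1, the smallest that 3 against 3 arrays can give, and 0.25 after adjustment over 30 such comparisons. Treatments that are no single factor moved it, to 2.07 with quantile normalization and to 0.59 with an offset added to the ratios. Of 66 genes with 2 tested probes, 4 had a larger gap between the changes of both probes for overventilation against control, and the median gap was 0.83. Probe 3802, like the probes of Sftpc and Sftpd, is annotated to a RefSeq transcript of its gene. Probe 1501 and the probe of Sftpa1 are annotated to other records, so both probes on the lower side after overventilation lack that annotation and the 3 on the higher side have it. Whether the annotation bears on the side was not tested. Which probe follows the napsin A transcript was not tested.

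The collectin gene Sftpd had the highest single ratio to the control mean among the 5 probes. It stood at -0.39, 0.70 and -0.31 in controls, at 0.72, 0.65 and 0.18 after LPS, and at 0.61, 0.89 and 4.12 on overventilation arrays 1 to 3. The last value is a ratio of 17.3 to the control mean, while overventilation arrays 1 and 2 lay within or just above the range of controls and LPS. Its distance to the next array was 3.23, and 4 of the 110 lone high values on that array had a larger one. The part of that array's lone high values in this result was not tested.

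For overventilation against control the log2 change of Sftpd was 1.87 (95% interval 0.07 to 3.67, 3.66-fold, limma adjusted p = 0.31), with means of 1.87 ± 1.95 and 0 ± 0.60 (SD, n = 3) and overlapping groups. Without overventilation replicate 3 it was 0.75 (adjusted p = 0.698). After LPS the change was 0.52 (95% interval -1.28 to 2.31, adjusted p = 1). The within-group SD of Sftpd, 1.19, exceeded that of 93.5% of the tested probes, where the median was 0.53.

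Sftpc, which encodes the hydrophobic surfactant protein C, stood at -0.58, 0.42 and 0.16 in controls, at 0.20, 0.35 and 0.10 after LPS and at 0.27, 0.24 and 1.72 after overventilation. The 3 LPS samples lay inside the range of the controls, as did overventilation arrays 1 and 2, and array 3 lay above every other sample. The change was 0.74 for overventilation against control (95% interval -0.26 to 1.75, 1.67-fold, limma adjusted p = 0.485) and 0.22 for LPS against control (95% interval -0.79 to 1.22, adjusted p = 1). Without overventilation replicate 3 the first was 0.25, and without control replicate 1 the second turned to -0.07.

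Sftpa1, by its annotated probe the gene of the collectin surfactant protein A, was the only one of the 3 surfactant protein genes measured to lie on the lower side in both treated groups, by less than the spread. It stood at 0.34, 0.09 and -0.43 in controls, at 0.45, -0.39 and -0.76 after LPS and at 0.16, -1.06 and -0.22 after overventilation, and the 3 groups overlapped. The change was -0.37 for overventilation against control (95% interval -1.36 to 0.61, limma adjusted p = 0.755) and -0.23 for LPS against control (95% interval -1.21 to 0.75, adjusted p = 1). Without overventilation replicate 2 the first was -0.03, and without LPS replicate 3 the second turned to 0.03.

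**Figure D2:**
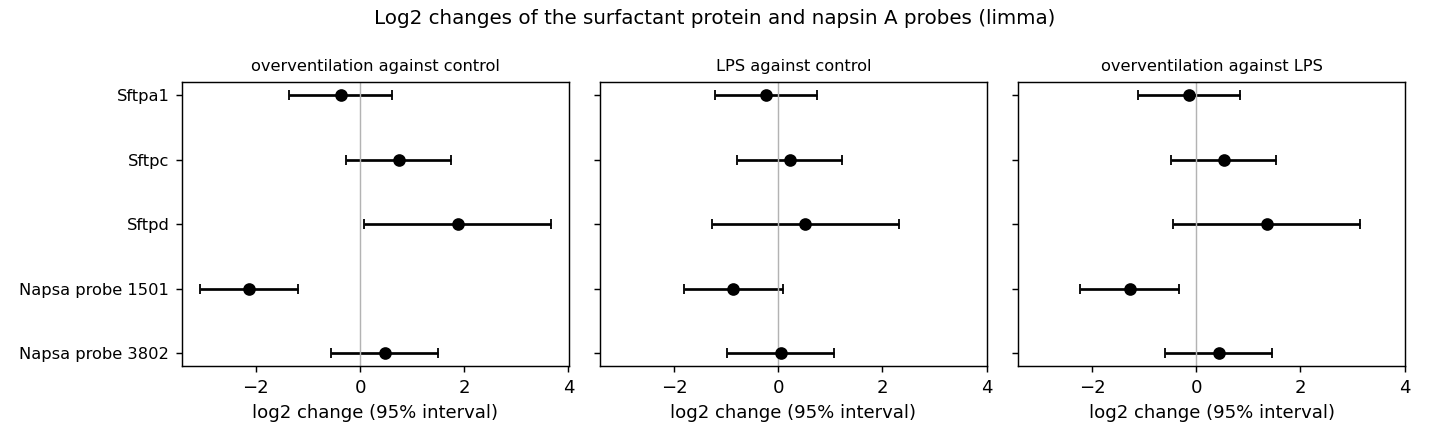
Log2 change (horizontal axis) of each surfactant protein and napsin A probe in the 3 comparisons, with 95% intervals from limma. The interval lies off 0 for Napsa probe 1501 (-3.08 to -1.19) and Sftpd (0.07 to 3.67) for overventilation against control, and for probe 1501 against LPS (-2.22 to -0.33), while no adjusted p passed.

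Overventilation against LPS gave changes of 1.35 for Sftpd (95% interval -0.44 to 3.15, limma adjusted p = 0.608), 0.52 for Sftpc (-0.48 to 1.53, adjusted p = 0.722), 0.43 for Napsa probe 3802 (-0.60 to 1.46, adjusted p = 0.778) and -0.14 for Sftpa1 (-1.12 to 0.84, adjusted p = 0.922). Without overventilation replicate 3 they were 0.23 for Sftpd, 0.04 for Sftpc and -0.06 for Napsa probe 3802, and for Sftpa1 0.20 without LPS replicate 1 or overventilation replicate 2. A moderated F test over the 3 groups gave its smallest value at Napsa probe 1501 (limma adjusted p = 0.424), and the other 4 probes had adjusted p of 0.583 to 0.92.

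The probes fell into unlike patterns. By the root mean square difference of log2 values over the 9 arrays, Sftpc and Napsa probe 3802 were the closest pair, at 0.33, and Sftpd and Napsa probe 1501 the farthest, at 2.64. The median distance to all named probes was 0.79 for Sftpa1, 0.85 for Sftpc and 1.58 for Sftpd. It was 1.47 for Napsa probe 1501 and 0.77 for probe 3802. Sftpc and probe 3802 each had a nearer probe of another gene, Ogdh and Tst, both at 0.17. Without overventilation array 3 Sftpc and Sftpd stood at 0.39, against 0.88 with it. The collectin genes Sftpa1 and Sftpd, which in the RefSeq gene table lie on mouse chromosome 14 with the mannose-binding lectin gene Mbl1 and a pseudogene between them, stood 1.69 apart, and 0.93 without overventilation array 3.

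In differences between 2 members on the same array a single scaling factor per array cancels, while quantile normalization and an offset still move them. Of 10 pairs of probes, 6 had differences that did not overlap between overventilated and control samples, 4 of them pairs with Napsa probe 1501, and the 10 pairs share their probes. For LPS against control the count was 2 of 10 and for overventilation against LPS 4 of 10. Over all pairs of tested probes such differences did not overlap in 22.7%, 8.12% and 13% for the 3 comparisons. The 2 pairs given next were picked because they did not overlap for LPS against control. Sftpa1 minus Napsa probe 1501 was 1.76 higher after overventilation and 0.62 higher after LPS than in controls, without overlap in either case (SD 0.29, 0.27 and 0.37, exact permutation p = 0.1 for each). Sftpd minus Napsa probe 3802 was 1.40 higher after overventilation and 0.47 higher after LPS (SD 1.12, 0.12 and 0.23, exact permutation p = 0.1 for each), again without overlap. The overventilation differences of this pair were 0.52, 1.01 and 2.65, and without array 3 the value was 0.77. With quantile normalization the overventilation values of both pairs were 1.43 and 0.95, and with an offset 0.30 and 0.84. Such a gap shows unequal change of both probes and not which of them moved, and 0.1 is the smallest p these group sizes allow. After Benjamini-Hochberg adjustment over 30 such comparisons each of these permutation p was 0.25.

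Overventilation array 3 had the highest floor, 1.15 on the log2 scale, and the values of Sftpc and Napsa probe 3802 were also highest there. This floor is the ratio of probes that were at the floor on every array. Values relative to it are a rescaling of each array and not a height above a probe's own floor, which is unknown here. A negative value is therefore not a value under the probe's own floor. On this scale Sftpc stood at 0.30, 0.56 and 0.56 after overventilation and Napsa probe 3802 at 0.11, 0.20 and 0.31. Their ratios spread up to 1.72 and 1.46. Their SD over the 3 arrays went from 0.84 to 0.15 and from 0.86 to 0.10. Among tested probes off the floor the SD was lower relative to the floor, by any amount, at 20.4%, and the median SD went from 0.50 to 0.85. Sftpd remained apart on that array at 2.96, against 0.64 and 1.21 on the others, and the SD of Sftpa1 and of Napsa probe 1501 grew. Scaled in this way, the changes for overventilation against control were 0.47 for Sftpc, 0.21 for Napsa probe 3802, 1.60 for Sftpd, -0.64 for Sftpa1 and -2.40 for Napsa probe 1501, beside a median of -0.27 over all tested probes. Whether the ratios or the values relative to the floor are the better scale was not tested.

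**Figure D3:**
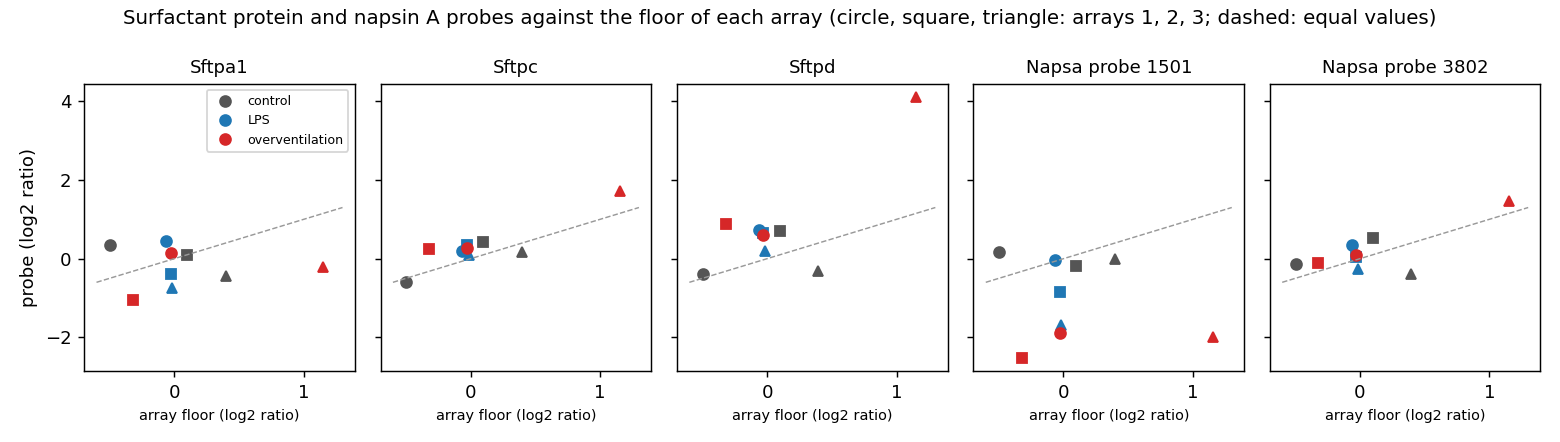
Log2 ratio of each probe (vertical axis) against the floor of the same array (horizontal axis, log2 ratio), with groups by colour and arrays 1 to 3 as circles, squares and triangles. On overventilation array 3 this floor is 1.15, and Sftpc (1.72) and Napsa probe 3802 (1.46) lie near the dashed line of equal values. Sftpd (4.12) lies above the line and Napsa probe 1501 (-1.98) below it. The floor shown is that of probes at the floor on every array, so the line is not the own floor of these probes.

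Array 1 of each group was the highest of its group for Sftpa1, at 0.34, 0.45 and 0.16 in controls, LPS and overventilation. The same held for 16.9% of all tested probes, against 9.05% for arrays numbered 2 and 3.27% for arrays numbered 3. It held for both Sftpa1 and Napsa probe 1501 among the 5 probes, and for 5 of the 15 other type II cell markers tested, namely Abca3, Slc34a2, Cxcl15, Cldn18 and Pgc. Cldn18 has another probe, which was highest on array 3 in the overventilated lungs and does not share this order. The labels do not say what the numbers mean.

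Other genes of the surfactant system were read from lists of known members. Of 21 further markers of type II cells 18 had a probe and 15 were tested, and limma called none in either direction in any comparison. For overventilation against control 9 lay on the higher side and 6 on the lower, with a median log2 change of 0.03 (all tested probes -0.01), and for LPS against control 10 and 5, with a median of 0.14 (all tested probes -0.05). The list's median was 0.18, 0.00 and 0.21 on the overventilation arrays, inside the range of the controls (-0.58 to 0.50). Lpcat1 and Lamp3 were not analysed here.

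Within that list Abca3, the lipid pump of lamellar bodies, had log2 changes of -0.03 after overventilation and -0.10 after LPS, and the phosphate carrier gene Slc34a2 -0.44 and 0.07. Hc, the gene of complement component C5, had the smallest p for overventilation against control in this list and in the list of defence proteins below. It stood at 0.10, 0.60 and -0.71 in controls, at -0.07, -0.60 and -1.25 after LPS and at -2.33, -1.90 and -3.69 after overventilation, with a change of -2.64 (SE 0.54, limma adjusted p = 0.193). Like Napsa probe 1501, it was lower on all 3 overventilated samples than on all others. Of all tested probes, 10.5% lay below all controls after overventilation and 5.46% below all LPS samples. Among the 15 tested markers, Hc was the only 1 below all controls after overventilation, and 3 lay above all controls. Epcam, an adhesion molecule of epithelial cells in general, lay above all controls on all LPS and all overventilated samples, with changes of 0.98 (adjusted p = 1) and 1.3 (adjusted p = 0.213).

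Cd74, the invariant chain of MHC class II, which type II cells share with leukocytes, had a change of 1.41 after overventilation (adjusted p = 0.415), with 0.18, 1.16 and 2.88 on its 3 arrays. The lysozyme gene Lyz2 had 2.56 (SE 0.97, adjusted p = 0.265), with 1.73, 1.19 and 4.77, and Lyz1 0.06. Cd74 and Lyz2, like Sftpd, were highest on overventilation array 3.

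**Figure D4:**
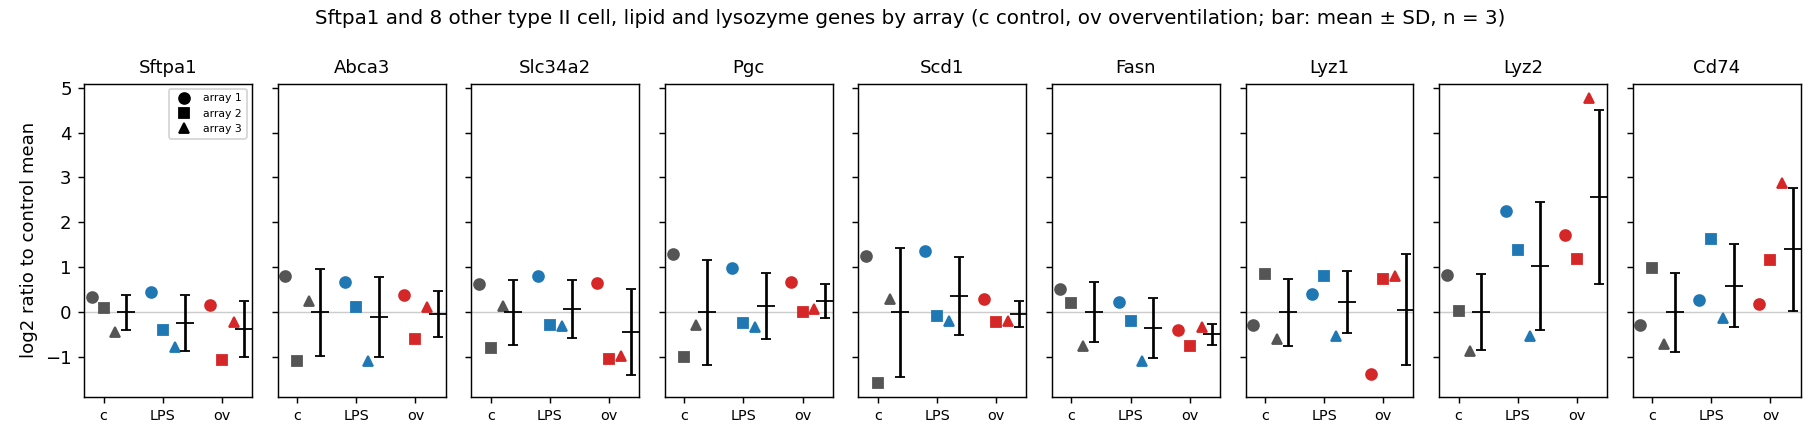
Log2 ratio to the control mean (vertical axis) of Sftpa1 and 8 other genes on the 9 arrays by group, with arrays 1 to 3 as circles, squares and triangles and bars for the mean ± SD over 3 arrays. Array 1 is the highest of each group for Sftpa1, Abca3, Slc34a2, Pgc and Scd1, and overventilation array 3 is the highest of all for Lyz2 (4.77) and Cd74 (2.88).

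Genes that make and move surfactant lipid also lay on both sides of the control mean. Of 31 listed, 20 had a probe and 15 were tested, with none called by limma, 5 on the higher and 10 on the lower side for overventilation against control and a median change of -0.19. After LPS the median was -0.10, with 6 and 9. The fatty acid synthase gene Fasn had changes of -0.48 and -0.35, at 1 probe, a second being at the floor on all 9 arrays, and the desaturase gene Scd1 -0.03 and 0.37. Chpt1, which encodes a cholinephosphotransferase of phosphatidylcholine synthesis, had the smallest p after overventilation. Its change was -1.61 (SE 0.45, limma adjusted p = 0.201), with all 3 samples below the controls. Overventilation arrays 1 and 3 were at or below the common floor, each listed at -1.80, so the size of this change rests in part on that floor. The smallest p after LPS was that of the fatty acid-binding protein gene Fabp5 (-0.48, adjusted p = 1).

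Of 31 genes of precursor processing, secretion and clearance, 23 had a probe and 20 were tested, again with none called. For overventilation against control 14 lay on the higher and 6 on the lower side (median 0.24), and for LPS 11 and 9 (median 0.06). Ctsh, a cathepsin that also cuts surfactant protein precursors, had a mean change of -2.23 after overventilation (SE 1.71, adjusted p = 0.591) that came from array 1 alone, at -7.45, with 0.34 and 0.42 on the others. The change of Ctsd, an aspartic protease like napsin A, was 0.59 (adjusted p = 0.718), that of Pgc, another aspartic protease, 0.25, and that of the cathepsin gene Ctsb -1.34 (SE 0.47, adjusted p = 0.235), with array 2 level with the lowest control at -0.24. Csf2, whose product GM-CSF drives surfactant clearance by macrophages, stood at 1.54, 1.77 and 1.00 after overventilation, above all controls (change 1.44, adjusted p = 0.493), and at -1.26, 2.64 and 2.30 after LPS (change 1.22, adjusted p = 1). Its receptor gene Csf2rb had changes of 0.11 and -0.24, and Pparg, a regulator of lipid handling in alveolar macrophages, 0.31 and -0.38. Lrp1, a large endocytic receptor, had the smallest p of this list after LPS (-0.67, adjusted p = 1).

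Many transcription factors of surfactant genes were near the floor. Of 33 listed, 28 had a probe and 15 were tested, and 6 were at the floor on all 9 arrays, Cebpa among them. Nkx2-1, the lung epithelial factor that drives surfactant genes, rose above the common floor on too few arrays to be tested. None of the 15 was called, and the median change was 0.30 after overventilation and 0.13 after LPS. Foxa1 had changes of -0.08 and -0.11, Foxa2 of 0.52 and 0.42, Gata6 of 0.30 and 0.10, and Cebpb of 0.69 and 1.14. The AP-1 gene Fosl1 had the smallest p after overventilation, at 1.99 (SE 0.44, adjusted p = 0.193), with 1.57, 1.65 and 2.74 on the 3 arrays.

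Among 12 tested genes of collectins and soluble defence proteins, of 23 listed, none was called, with medians of 0.11 after overventilation and -0.10 after LPS. The serum collectin gene Mbl2 stood at 0.63, 0.98 and 0.46 after LPS, above all controls (change 0.69, adjusted p = 1), while Mbl1, the neighbour of Sftpa1 and Sftpd, was too near the floor to be tested. Scgb1a1, the main secretory protein of club cells, had changes of 0.07 and -0.04.

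Markers of other lung cells were read beside these, as ratios whose summed level is not defined. For overventilation against control the median log2 change was 0.21 over 8 type I cell genes, 0.07 over 9 club cell genes, -0.76 over 4 ciliated cell genes, 0.10 over 10 endothelial genes, -0.49 over 8 fibroblast and smooth muscle genes and -0.92 over 5 leukocyte genes, with none called. The leukocyte markers Adgre1, Cd3e and Cd8a were at the floor on all 9 arrays. The part of cell composition in the results on surfactant proteins and napsin A was not tested.

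By the same root mean square difference, the 3 probes of other genes nearest to each of the 5 were found among all tested probes. For Sftpd these were Clec4n (0.35), Ager (0.36) and Chac1 (0.39), where the median over all named probes was 1.58. Ager encodes a receptor that is abundant in alveolar type I cells, and like Sftpd it was highest on overventilation array 3, at 4.48, with 1.19 and 1.14 on the others. For Napsa probe 1501 they were Mmp11 (0.39), Shkbp1 (0.41) and Pold1 (0.42), against a median of 1.47. Their changes for overventilation against control were -2.35, -1.85 and -1.84. Nearest to Napsa probe 3802 were Tst, Aprt and Polr1a (0.17 to 0.19, median 0.77), to Sftpc Ogdh, Atf2 and 2510009E07Rik (0.17 to 0.19, median 0.85) and to Sftpa1 Chga, Gsc and Tfap2b (0.19 to 0.21, median 0.79).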

How the data were processed

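Total RNA of mouse lung was measured on 9 arrays. Maker, dyes, scanner and the authors' processing: not given in the sources used here. Deposited values are linear ratios, as tested on the values. The mean control log2 value was 0 in every probe, within 2.5e-09. Each array had its own floor, seen as 1 fixed pattern over arrays (log2 tolerance 1e-06), which 4690 probes reached on 2 or more arrays. For those probes values were lifted to the highest floor (a ratio of 2.22) and centred on the controls anew. Tests covered a probe above that floor on 3 or more arrays or with no 2 arrays at a floor. No scaling between arrays was added. Array signal over background is otherwise unknown, and the number of arrays limits the precision.

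The group test was limma's (version 3.58.1, R 4.3.3; lmFit, eBayes, two-sided, all 9 arrays in 3 groups, no block), adjusted by Benjamini-Hochberg over 5710 probes with a threshold of 0.05. For differences between 2 members the exact permutation test over samples was used. Symbols came from the platform annotation, which gives 1 symbol for 8983 probes. No genome build is named, so no coordinates are given. A gene with several probes took, in lists, the probe off the floor on most arrays, then the lowest number.

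Same-numbered arrays of LPS and control deviated together from their group means (correlations 0.497, 0.247 and 0.199). Arrays of unlike number were not compared, so pairing was not tested, and no label states it. Overventilation gave correlations of 0.508, 0.133 and 0.033 with control, and of 0.496, 0.211 and 0.038 with LPS.

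The members and gene lists were chosen with earlier results of these data known. Named genes are all member probes, the 3 nearest probes to each, a fixed set of surfactant genes, and the smallest p of each list. Cxcl15, Cldn18, Adgre1, Cd3e and Cd8a were picked after their values were seen. Alternatives were no floor, an offset, no filter, quantile normalization, median centring, array weights, only the groups compared, a replicate block and leaving out each array. Values relative to each array's floor were added after seeing the data.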

Additional observations from a re-analysis of the deposited data

How the results depend on the processing

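The 15 changes of the 5 probes were recomputed under 18 alternatives. None of the 270 values was called, and 260 kept their direction. Part of that count was fixed in advance. No floor, no filter, a replicate block, only the groups compared and leaving out an array of the third group return the same log2 change for these probes. Those alternatives could move only the p. The reversed changes were between -0.23 and 0.48 in the fit of all 9 arrays. With array weights Napsa probe 3802 for LPS against control was -0.003. Leaving out 1 array at a time gave -0.151 to 0.308 for that change, -0.017 to 0.773 for Napsa probe 3802 in overventilation against control and -0.063 to 0.727 against LPS, -0.576 to 0.029 for Sftpa1 in LPS against control and -0.407 to 0.202 in overventilation against LPS, and -0.073 to 0.43 for Sftpc in LPS against control. The count of called probes over the whole array ranged from 0 to 290 for overventilation against control, 0 to 1 for LPS against control and 0 to 226 for overventilation against LPS, with no member called. The cause was not tested. With the replicate block 0 probes were called in each comparison, as without it, and the adjusted p of Napsa probe 1501 for overventilation against control was 0.122. Quantile normalization gave -1.80 for that change (adjusted p = 0.656) and 1.21 for Sftpd. With an offset, which shrinks every ratio, they were -0.39 and 1.03. Averaging the tested probes of a gene did not move the median of the type II cell list beyond the spread. Signal over background is unknown for the 5 probes.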

Other observations

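Aqp5, a water channel of type I cells, split the arrays within groups. Its probe was at or below the common floor on control arrays 2 and 3 and overventilation arrays 1 and 2, each listed at -1.24, and stood at 2.48 on control array 1, at 2.33, 2.81 and 2.67 on the LPS arrays and at 3.15 on overventilation array 3. Its change for LPS against control, 2.60 (SE 1.26), did not pass (limma adjusted p = 1). Values far below the control mean stood at -7.45 for Ctsh on overventilation array 1 and, for Vegfa, at -7.50 and -4.68 on overventilation arrays 1 and 3, with -0.09 on array 2.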
